A study of Mus musculus with 4 samples.

Results

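Cadherins and protocadherins were followed in differentiating oligodendroglial cells with and without the zinc finger protein Zfp276. The set holds every entry of the count files whose symbol starts with Cdh or Pcdh and goes on with digits or lower case letters, 98 entries under 97 symbols of 53465 entries in all. Pcdha11 is listed on 2 entries, which could not be assigned to 1 gene each. Of the 98 entries, 74 had at least 10 counts in every library, 12 were below 10 in every library, 12 lay between, and 61 are located on chromosome 18. Cdh16, a kidney cadherin, and Pcdha4 had 0 counts in all 4 libraries. For Cdh16 this allows up to 0.142 CPM (counts scaled to library totals) in the shallowest library if 3 counts are taken as the floor for counting error. The bound may not hold for Pcdha4, since 88.4% of the 101-base windows of its transcripts also occur in another gene.

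RNA-Seq was performed on primary mouse oligodendroglial cultures (OGCs) from forebrains at postnatal day 2 to 4. After shake-off and depletion of microglia, the cells were kept for 3 days in differentiation medium. The ctrl group (Zfp276 flox/flox) and the Zfp276cko group (Sox10::Cre tg; Zfp276 flox/flox) comprised 2 cultures each, every one pooled from several mice, and both carry the floxed Zfp276 allele. The Cre transgene is driven by Sox10 sequences, so that recombination in these cultures depends on Sox10 expression, and it is present only in Zfp276cko mice. Mice for these cultures also carried a tdTomato reporter allele at Rosa26 and were on a mixed background of C3H and C57Bl/6J. The transgene itself and the loss of Zfp276 cannot be told apart in this design.

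Cadherins are transmembrane proteins whose extracellular repeats bind calcium and mostly the same protein on the next cell. Classical cadherins hold catenins at their tails and thereby reach actin, and N-cadherin (Cdh2) is known for contacts between oligodendrocytes and axons. Protocadherins lack the catenin tail. Delta-protocadherins are single genes that sort neurons and their connections, and several bind the WAVE complex, which drives actin branching. The alpha, beta and gamma protocadherins lie in a cluster in which each variable exon has its own promoter, and alpha and gamma transcripts share constant 3' exons.

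Promoter sequences are given for 4 members outside the cluster whose normalized counts were lower in both Zfp276cko cultures, and for Pcdh20, whose groups overlapped. They comprise the 250 bases before the RefSeq start on GRCm38.p6, 5' to 3' on the strand of the gene, and CG dinucleotides are in capitals.
Pcdh10, chr3:45378148-45378397, plus strand: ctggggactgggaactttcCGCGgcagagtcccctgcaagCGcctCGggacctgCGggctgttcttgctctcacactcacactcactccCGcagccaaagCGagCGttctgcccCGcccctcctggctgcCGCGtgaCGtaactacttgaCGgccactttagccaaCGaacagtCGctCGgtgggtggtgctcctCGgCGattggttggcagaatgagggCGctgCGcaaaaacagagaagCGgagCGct
Pcdh17, chr14:84443313-84443562, plus strand: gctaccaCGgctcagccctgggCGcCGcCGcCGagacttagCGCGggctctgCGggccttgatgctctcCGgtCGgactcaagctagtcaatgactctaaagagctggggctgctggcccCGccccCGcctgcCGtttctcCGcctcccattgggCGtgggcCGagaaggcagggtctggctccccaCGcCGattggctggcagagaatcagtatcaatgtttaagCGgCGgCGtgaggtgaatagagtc
Pcdh19, chrX:133688994-133689243, minus strand: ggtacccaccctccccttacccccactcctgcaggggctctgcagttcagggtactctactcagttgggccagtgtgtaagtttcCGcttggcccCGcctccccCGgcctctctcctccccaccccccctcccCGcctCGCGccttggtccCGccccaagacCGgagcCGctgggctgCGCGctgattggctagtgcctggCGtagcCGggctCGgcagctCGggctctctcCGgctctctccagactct
Cdh20, chr1:104768270-104768519, plus strand: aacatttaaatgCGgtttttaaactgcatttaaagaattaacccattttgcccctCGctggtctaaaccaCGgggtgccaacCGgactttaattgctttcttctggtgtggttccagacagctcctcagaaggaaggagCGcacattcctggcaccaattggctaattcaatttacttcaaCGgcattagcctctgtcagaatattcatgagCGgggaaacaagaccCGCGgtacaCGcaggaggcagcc
Pcdh20, chr14:88471397-88471646, minus strand: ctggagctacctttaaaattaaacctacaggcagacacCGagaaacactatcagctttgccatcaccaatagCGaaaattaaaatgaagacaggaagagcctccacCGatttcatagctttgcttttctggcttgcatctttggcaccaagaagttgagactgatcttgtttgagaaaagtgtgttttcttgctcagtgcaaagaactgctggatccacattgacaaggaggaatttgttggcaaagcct

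The upstream sequence of Pcdh10 held 22 CG dinucleotides, that of Pcdh17 held 21, and that of Pcdh19 held 16. As many CG dinucleotides as in Pcdh10 occurred in 14.8% of the 32851 RefSeq windows of this length, and as many as in Pcdh19 in 25.4%. Cdh20 held 10 and Pcdh20 held 3, and the median over all windows was 6. Other members that were lower in both Zfp276cko cultures varied widely, from 2 in Cdh10, 6 in Pcdh15 and 7 in Pcdh7 to 18 in Pcdh9 and 30 in Cdh22. Members whose groups overlapped also varied widely, from 1 in Cdhr2 to 20 in Cdh8, 22 in Cdh24 and 23 in Pcdh18. For 30 windows of 27 member symbols outside chromosome 18 the median was 7. A relation between CG dinucleotides and the difference between genotypes was not tested. The letters AAAGGG, a part of the consensus RAAAGGGYK that the study gives for Zfp276, were looked for on both strands. The study finds a mismatch in the last positions compatible with binding. A site can therefore lack these letters, and the letters alone are not the whole site. Also looked for were CACCTG, an E-box bound by Zeb factors, and ACAAAG, a Sox type motif. The letters AAAGGG were present in 10 of the 30 member windows and in 19.0% of all windows. CACCTG occurred in 5 and 17.2%, and ACAAAG in 5 and 16.5%, respectively. These shares were not tested, and Cdh7 and Pcdh9 have more than 1 window each. Of the members with AAAGGG, only Pcdh7 was lower in both Zfp276cko cultures. The groups of Cdh8, Cdh18, Cdh23, Cdhr5, Pcdh8 and Pcdh18 overlapped, and Cdh7 and Cdh9 did not pass the filter on low counts. None of the 3 motifs lies in the 5 windows printed above. Among other members that were lower in both Zfp276cko cultures, the window of Pcdh7 held AAAGGG at 2 positions and those of Pcdh15 and Cdhr1 held CACCTG at 1.

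Total counts ranged from 21068322 to 26599809 per library, and the members held between 0.201% and 0.275% of them. Normalized Zfp276 counts were 1648 and 2230 in ctrl cultures, compared to 490 and 503 in Zfp276cko cultures, or 25.6% of the ctrl mean, although the count per gene includes exons outside the loxP sites. The 2 ctrl cultures differed much more from each other than the 2 Zfp276cko cultures, with a biological coefficient of variation of 0.357 against 0.0480 over all genes. Ctrl replicate 1 stood apart in its summed normalized count of 8 fibroblast and mural markers, 8957 against 475 in ctrl replicate 2 and 283 to 350 in the Zfp276cko cultures. Of 10 oligodendrocyte markers, all had at least 10 counts in every library, and their sum was 316675 and 434768 in ctrl and 217296 and 221546 in Zfp276cko cultures. The sum of 5 OPC markers was 174780 and 128343 in ctrl and 95966 and 94035 in Zfp276cko cultures. Gpr17 gave most of the ctrl sums, with 113405 and 69766 compared to 43296 and 41092. Of the 5 OPC markers, 3 lay below both ctrl cultures and 0 above. Pdgfra (10049 and 15501 compared to 11842 and 11561) and Lhfpl3 (11196 and 5622 compared to 8986 and 9357) overlapped. Sums ranged from 39058 to 45618 for 8 astrocyte markers, from 18330 to 36633 for 8 microglial markers, from 643 to 1468 for 6 endothelial markers, from 145 to 246 for 4 ependymal markers and from 77.2 to 102 for 4 Schwann cell markers. In such bulk samples, fewer cells of a type and less RNA per cell cannot be told apart, and the part of these marker differences in the member values below was not tested. P-values measure only the spread between 2 cultures per genotype.

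At the transcript level one member exceeded all others. Pcdhgc3, a C-type gamma-protocadherin, reached 3529 normalized counts per kb of unique exon as the mean of the 4 libraries. Unique exon means exon bases of the strand that no other gene covers, and levels are ranked between genes only on this scale. Shares of counts are not scaled to length. The next member was Cdh20, a type II classical cadherin, with 464 normalized counts per kb. Pcdh7 (398), Cdh2 (392), Pcdh9 (354), Pcdh17 (280), Cdh13 (239), Pcdh1 (235) and Pcdh10 (222) followed on the same scale. For Cdh2 and Cdh11 (220), a mesenchymal type II cadherin, ctrl replicate 1 lay close to the Zfp276cko cultures. Reads of genes that overlap on the opposite strand may be included, since the strand setting of the counting is not known. Together, 13 of the 98 entries accounted for 73.7% of the normalized counts of the set, and Pcdhgc3 alone for 21.6%.

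**Figure D1:**
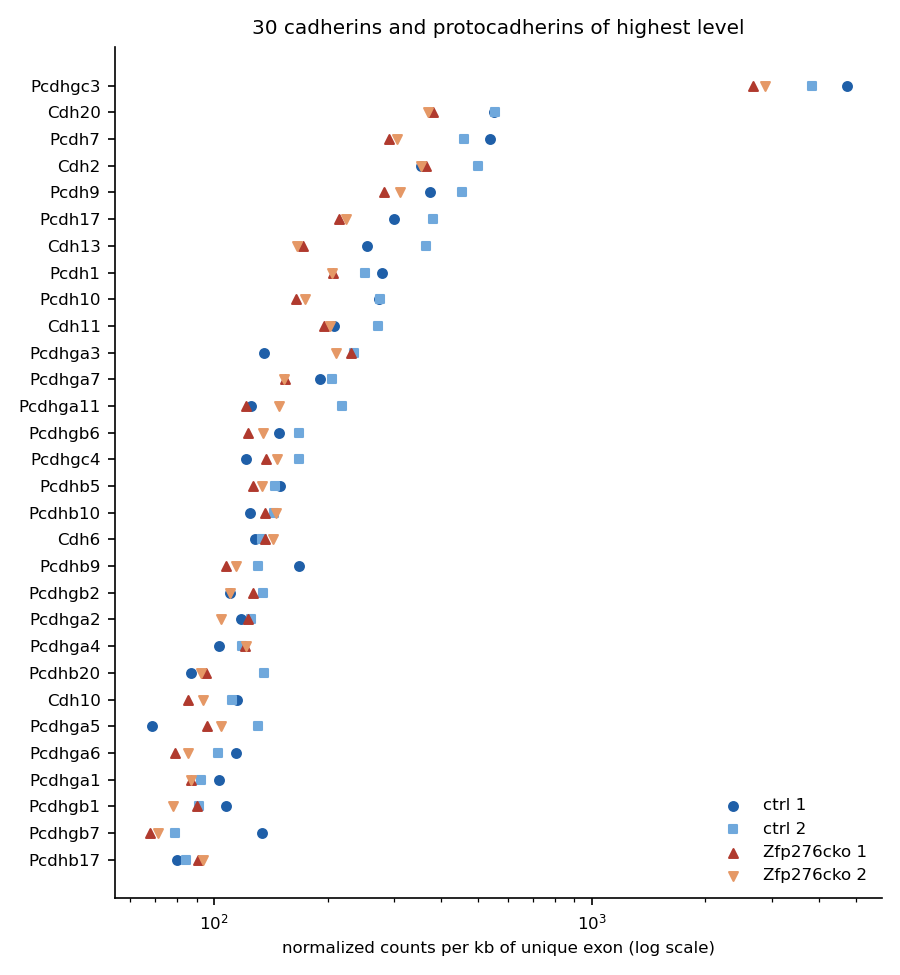
Level of the 30 members of highest mean in each of the 4 libraries, as normalized counts per kb of unique exon on a log axis. Pcdhgc3 sits far to the right of the other members with a mean of 3529, and the triangles of the Zfp276cko cultures lie left of the ctrl symbols for Cdh20, Pcdh7, Pcdh9, Pcdh17, Cdh13, Pcdh1 and Pcdh10.

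The comparison of Zfp276cko with ctrl cultures asks whether loss of Zfp276 alters the adhesion repertoire of differentiating OGCs. Of the 83 members that passed the filter on low counts, 33 had both Zfp276cko libraries below both ctrl libraries, or 39.8%. Only 6 (7.23%) had both above. Among all 15766 genes tested the shares were 23.7% below and 26.8% above. The median log2 fold change of the tested members was -0.25, compared to -0.0013 for all tested genes. Without ctrl replicate 2 the median of the members was -0.10, and without the other libraries it stayed between -0.26 and -0.23. Outside the cluster, 15 of 30 tested members lay below and 1 above, with a median of -0.55. Among 53 tested clustered protocadherins, 18 lay below and 5 above, with a median of -0.098. The difference between these groups of members was not tested.

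None of the members passed the edgeR quasi-likelihood test with Benjamini-Hochberg adjustment, for which the limits were 0.05 for the adjusted p, 0.6 for the size of the log2 fold change and 20 for the mean normalized count. The same holds for all other genes, so that 0% were called lower and 0% higher. Before adjustment, 15 members had an edgeR p of at most 0.05 and all 15 were lower in Zfp276cko. Of all tested genes, 7.3% were lower and 8.33% higher by this rule. With the thresholds on fold change and mean count, 8 of the 83 members were left (Pcdh7, Pcdh10, Pcdh17, Pcdh19, Cdh13, Cdh22, Pcdhga10 and Pcdhgc3), against 3.02% of all tested genes. No member was higher by this rule, against 5.11% of all tested genes. DESeq2, which was also the tool of the study, called 7 of 80 members with an adjusted p lower (Pcdh7, Pcdh10, Pcdh15, Pcdh17, Pcdh19, Cdh13 and Pcdhgc3). Of all genes it called 2.21% lower and 2.92% higher, and the latter included no member.

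Both counts depend on the ctrl cultures. When ctrl replicate 1 was left out, edgeR called 13 members lower and 2 higher, against 5.76% and 10.2% of all genes, respectively. When ctrl replicate 2 was left out, it called 13 lower and 6 higher, against 7.77% and 10.8%. In both cases the lone ctrl library is assumed to vary as little as the Zfp276cko cultures do. Leaving out a Zfp276cko library gave no call among members.

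The subfamilies differed in their counts. All 4 delta-1 and 3 of 5 delta-2 protocadherins lay below both ctrl cultures and none above, and the medians were -0.45 and -0.69 on the log2 scale. Of 10 tested type II cadherins, 5 lay below and 1 above, with a median of -0.31. None of 3 tested type I cadherins was separated in either direction, and their median was -0.30. The most negative median, -0.94, belonged to 6 tested other cadherins, of which 2 lay below and 0 above. Only 1 of the 10 entries of that group, Cdh13, had at least 10 counts in every library. Of 2 tested other protocadherins, 1 lay below and 0 above, with a median of -0.15. In the cluster, 11 of 22 gamma, 3 of 10 alpha and 4 of 21 beta protocadherins lay below, whereas 2 gamma, 0 alpha and 3 beta protocadherins lay above. Of all tested genes, 23.7% lay below and 26.8% above. The shares below were 50% for gamma, 30% for alpha and 19% for beta protocadherins, so that alpha and beta were near that of all genes. The shares above were 9.09%, 0% and 14.3%, respectively. The median log2 fold change was -0.21 for gamma, -0.12 for alpha and -0.00018 for beta protocadherins. Without ctrl replicate 2 the medians were -0.13 for gamma, -0.28 for alpha and 0.097 for beta protocadherins, and without ctrl replicate 1 the beta median was -0.12. Differences between subfamilies were not tested.

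**Figure D2:**
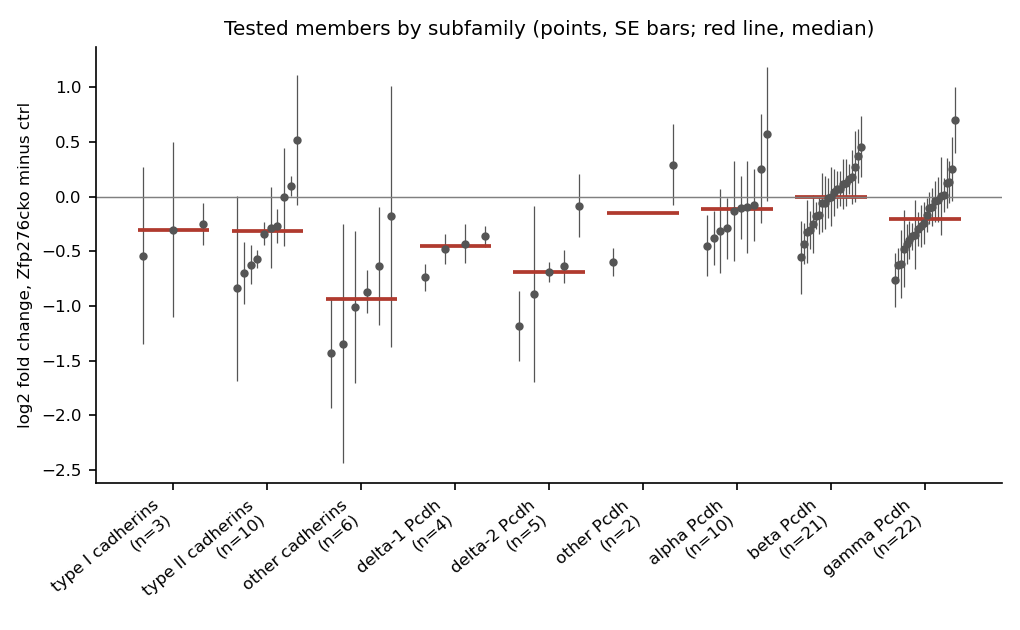
Log2 fold change of Zfp276cko minus ctrl for the 83 tested members, by subfamily, with bars for the standard error and a red line for the median. The medians are -0.94 for other cadherins, -0.45 and -0.69 for delta-1 and delta-2 protocadherins and near 0 for beta protocadherins. The widest error bars belong to 2 other cadherins of low count, Cdh23 and Cdhr5.

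Among delta-2 protocadherins, Pcdh10 binds the WAVE complex through its tail and lies on chromosome 3 of mm10 from 45378398 to 45435623. Its normalized counts were 4342 and 4357 in ctrl cultures, compared to 2619 and 2765 in Zfp276cko cultures. Both Zfp276cko cultures were thus far below the ctrl pair, which itself differed by only a few counts. The mean was 4350 ± 10.8 in ctrl and 2692 ± 103 in Zfp276cko cultures (SD, n = 2 each), or 61.9% of ctrl. An SD from 2 values is itself uncertain, and over all genes the biological coefficient of variation in ctrl cultures was 0.357. The log2 fold change of Pcdh10 was -0.69 with a standard error of 0.09, and its adjusted p by edgeR of 0.121 was the smallest of all members. DESeq2 gave an adjusted p of 6.59e-05. Without ctrl replicate 1 or 2 the log2 fold change was -0.69 and -0.70.

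Pcdh17, a delta-2 protocadherin on chromosome 14 (84443563 to 84539002) that likewise recruits WAVE, gave 3898 and 4947 in ctrl and 2776 and 2910 in Zfp276cko cultures. The groups did not overlap, but the ctrl cultures were further apart than for Pcdh10. With a log2 fold change of -0.64, it had an adjusted p of 0.192 by edgeR and 0.0193 by DESeq2. Pcdh19, an X-linked delta-2 protocadherin known as an epilepsy gene in humans (chromosome X, 133582860 to 133688987), had 305 and 530 in ctrl and 174 and 193 in Zfp276cko cultures. This was the largest proportional difference among members of at least 20 mean normalized counts, at 43.9% of ctrl and a log2 fold change of -1.19 with a standard error of 0.32. The adjusted p was 0.229 by edgeR and 0.0245 by DESeq2, and the log2 fold change ranged from -1.53 without ctrl replicate 1 to -0.75 without ctrl replicate 2.

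The other delta-2 members behaved differently. Pcdh8, also known as arcadlin and involved in the internalization of cadherins at synapses, had 258 and 423 in ctrl and 331 and 312 in Zfp276cko cultures. Here both Zfp276cko values lay between the ctrl values. Pcdh18 was low, with 15.4 and 77.6 in ctrl and 24.4 and 25.8 in Zfp276cko cultures, and differed 4.79-fold within the ctrl pair. Its fold change of -0.89 on the log2 scale turned to 0.68 without ctrl replicate 2.

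Of the delta-1 protocadherins, Pcdh7 was the most abundant per kb. It binds protein phosphatase 1 at its tail and lies on chromosome 5 (57717967 to 58133230). Normalized counts were 5694 and 4853 in ctrl cultures, compared to 3082 and 3241 in Zfp276cko cultures. The groups were well separated, and the mean was 59.9% of ctrl. A log2 fold change of -0.74 ± 0.12 (SE) went with an adjusted p of 0.139 by edgeR and 0.000868 by DESeq2. It was -0.62 when ctrl replicate 1 was left out, and -0.86 for ctrl replicate 2.

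Pcdh9, a large gene on chromosome 14 (93013410 to 93890679), had 2524 and 3071 in ctrl and 1910 and 2111 in Zfp276cko cultures. Pcdh1, known from airway epithelium and located on chromosome 18 outside the cluster (38185914 to 38212053), had 2448 and 2212 compared to 1816 and 1809. Pcdh11x, which is X-linked, had 239 and 271 compared to 194 and 185. In each case both Zfp276cko cultures were below the ctrl cultures, with a smaller distance than for Pcdh7. The log2 fold changes of Pcdh9 and Pcdh1 were -0.48 and -0.36 with edgeR adjusted p-values of 0.241 and 0.219, and neither was called by DESeq2.

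Protocadherins that belong to neither the delta group nor the cluster went in both directions. Pcdh15, which forms tip links of inner ear hair cells, is spread over more than a megabase on chromosome 10 (73099342 to 74649737). It had 1109 and 1314 in ctrl and 775 and 824 in Zfp276cko cultures, without overlap. Its log2 fold change was -0.60 with an adjusted p of 0.183 by edgeR and 0.0321 by DESeq2. Pcdh20 had 537 and 266 in ctrl and 460 and 522 in Zfp276cko cultures, so that the ctrl values enclosed both others. Its log2 fold change was 0.29, and leaving out ctrl replicate 1 or 2 gave 0.89 and -0.14. Pcdh12, an endothelial protocadherin, did not exceed 2 normalized counts in any library.

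**Figure D3:**
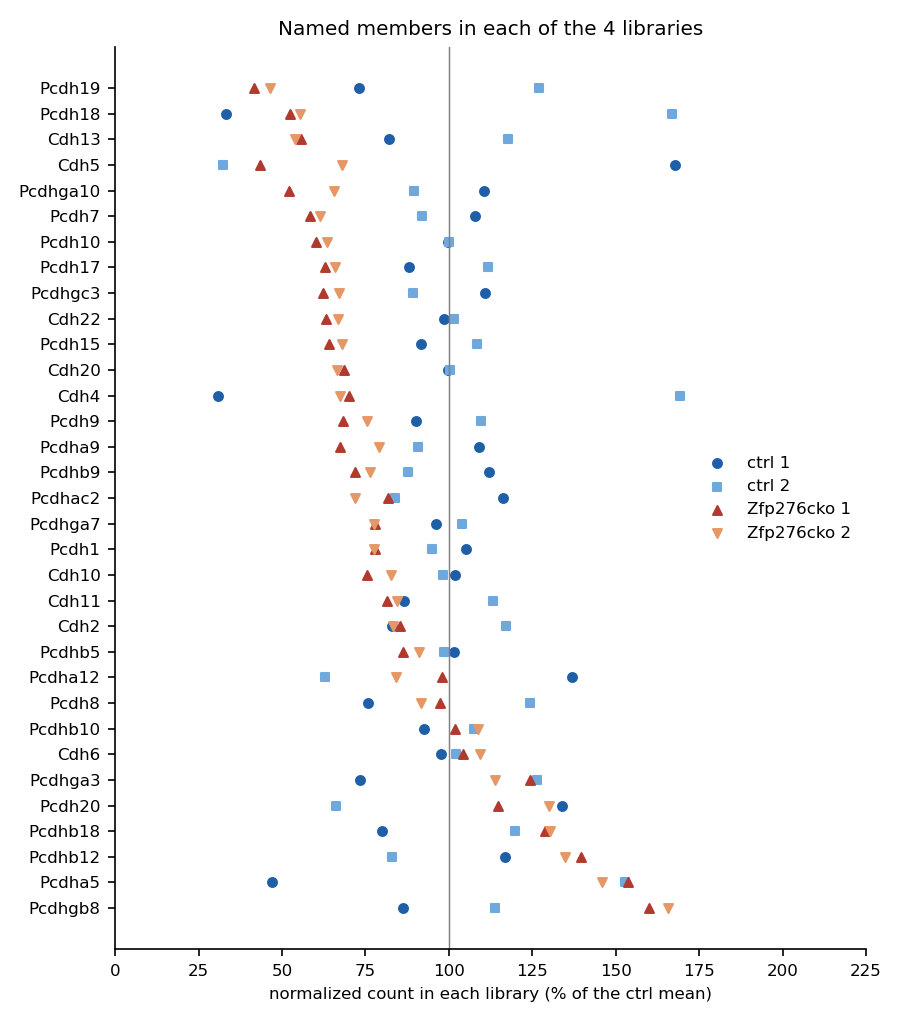
Normalized count in each library as percent of the ctrl mean for 33 named members with 20 or more normalized counts on average, ordered by log2 fold change. The triangles of the Zfp276cko cultures lie close together for most members, less so for Cdh5, while the ctrl symbols of Cdh4, Cdh5, Pcdh18 and Pcdha5 lie far apart on both sides of 100%, as for Cdh4 with 161 and 886 normalized counts.

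Cdh2, or N-cadherin, on chromosome 18 (16588877 to 16809246) was the most abundant type I cadherin. Its normalized counts were 2846 and 4023 in ctrl cultures, compared to 2930 and 2855 in Zfp276cko cultures. Both Zfp276cko cultures lay just above ctrl replicate 1 and below ctrl replicate 2. The log2 fold change was -0.25 with an edgeR adjusted p of 0.587, and 0.0096 without ctrl replicate 2. Cdh4, or R-cadherin, had 161 and 886 in ctrl and 367 and 352 in Zfp276cko cultures. Its ctrl cultures differed 5.46-fold, compared to 1.04-fold in the Zfp276cko cultures. Without ctrl replicate 1 its log2 fold change was -1.30, and without ctrl replicate 2 it was 1.14. Of the other type I members, E-cadherin (Cdh1) stayed between 5.16 and 19.1 normalized counts, and the placental Cdh3 and muscle Cdh15 did not exceed 3.

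Among type II cadherins, Cdh20 on chromosome 1 (104768529 to 104995481) was the highest in level. Normalized counts were 2215 and 2229 in ctrl cultures, compared to 1521 and 1479 in Zfp276cko cultures. The pairs of replicates were close in both genotypes and well separated from each other. The log2 fold change was -0.57 ± 0.082 (SE), with an adjusted p of 0.123 by edgeR and 0.00344 by DESeq2, yet it stayed below the threshold of 0.6 in size and was not called. Across the leave-out fits it ranged from -0.58 to -0.54.

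Cdh10, a brain type II cadherin, had 1159 and 1119 in ctrl and 859 and 942 in Zfp276cko cultures. Cdh22 had 246 and 253 compared to 157 and 167. Both were separated, with log2 fold changes of -0.34 and -0.62 and edgeR adjusted p-values of 0.266 and 0.238, and neither was called by DESeq2. Cdh11 had 1851 and 2423 compared to 1743 and 1807, and Cdh6, or K-cadherin, had 1155 and 1210 compared to 1232 and 1291. Cdh6 was the only tested type II cadherin with both Zfp276cko cultures above ctrl, by 0.09 on the log2 scale with an edgeR adjusted p of 0.668. Cdh19, a glial cadherin well known from Schwann cell precursors, had 361 and 232 compared to 168 and 196. Cdh5, or VE-cadherin, marks endothelium and had 70.0 and 13.5 compared to 18.1 and 28.4. The sum of the 6 endothelial markers was 1245 and 643 in ctrl and 1468 and 1326 in Zfp276cko cultures, with Cldn5 at 0 counts throughout and Vwf between 477 and 1213. Their part in the Cdh5 values was not tested.

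Cdh13, or T-cadherin, is anchored to the membrane by a lipid and has no cytoplasmic tail. It lies on chromosome 8 (118283733 to 119324921) and had 2846 and 4084 in ctrl and 1931 and 1863 in Zfp276cko cultures. All Zfp276cko values were lower, and the mean was 54.8% of ctrl. A log2 fold change of -0.87 ± 0.20 (SE) went with an adjusted p of 0.189 by edgeR and 0.00687 by DESeq2. It reached -1.11 when ctrl replicate 1 was left out, and -0.60 for ctrl replicate 2. Of the 10 entries of this group, the other cadherins, Cdh13 alone had 10 counts or more in every library, and the 9 others were low. Cdhr1, a photoreceptor protein, had 14.2 and 12.4 compared to 6.33 and 3.44, with an edgeR p of 0.0436 and an adjusted p of 0.308 on a mean count below the threshold.

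Pcdhgc3 lies near the end of the gamma cluster on chromosome 18, with its start 876 kb from that of Pcdha1. Its normalized counts were 16031 and 12931 in ctrl cultures, compared to 9039 and 9718 in Zfp276cko cultures. Both Zfp276cko cultures were below both ctrl cultures, and the mean was 64.8% of ctrl. The log2 fold change was -0.63 ± 0.15 (SE) with an adjusted p of 0.200 by edgeR and 0.0191 by DESeq2. It was -0.46 when ctrl replicate 1 was left out, and -0.79 for ctrl replicate 2.

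As a share of all counts assigned to gamma genes, Pcdhgc3 made up 72.4% (95% Wilson interval 71.7 to 73.0%) and 65.7% (65.01 to 66.4%) in ctrl cultures. In Zfp276cko cultures it was 61.3% (60.5 to 62.0%) and 63.0% (62.3 to 63.7%). The intervals cover counting error only. The distance between ctrl cultures exceeded that between ctrl replicate 2 and both Zfp276cko cultures. With 2 against 2 libraries, the smallest p that an exact permutation test can give is 0.333 (two-sided), so that no such test was used. The 21 other gamma genes together gave 6116 and 6745 normalized counts in ctrl and 5712 and 5715 in Zfp276cko cultures, or 88.9% of ctrl.

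Of the C-type isoforms, Pcdhgc4 had 423 and 583 normalized counts in ctrl and 476 and 510 in Zfp276cko cultures, and Pcdhgc5 had 183 and 141 compared to 184 and 169. Both overlapped between genotypes, in contrast to their neighbor Pcdhgc3. Among the variable gamma genes, Pcdhga3 had 354 and 609 compared to 598 and 548, while Pcdhga7 had 590 and 637 compared to 478 and 476. Pcdhga10 had 207 and 168 compared to 97.7 and 123. Pcdhga7 and Pcdhga10 did not overlap, and their log2 fold changes were -0.36 and -0.76 with edgeR adjusted p-values of 0.300 and 0.282. In the opposite direction, Pcdhgb8 had 27.3 and 36.0 compared to 50.7 and 52.4, or a log2 fold change of 0.70 with an edgeR adjusted p of 0.370.

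**Figure D4:**
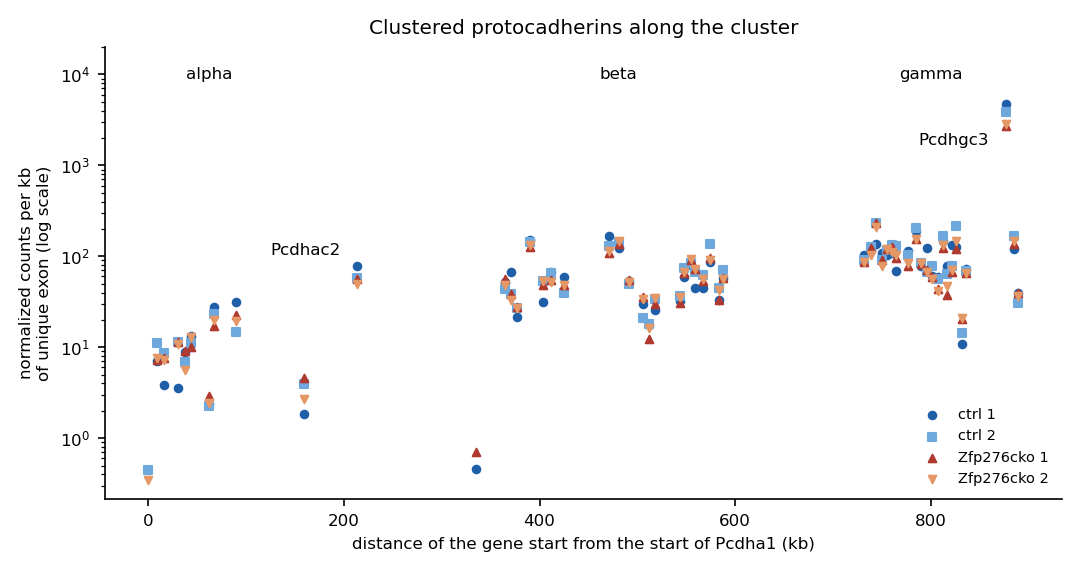
Level of the alpha, beta and gamma protocadherins in each library, as normalized counts per kb of unique exon on a log axis, against the distance of the gene start from that of Pcdha1 in kb, without zero values and Pcdha11. As means, alpha genes other than Pcdhac2 do not exceed 22.1, beta genes other than Pcdhb1 and gamma genes other than Pcdhgc3 lie between 16.1 and 203, and Pcdhgc3 lies far above at 876 kb.

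Alpha protocadherins were the lowest of the clustered genes, with 8 of 14 entries at 10 counts or more in every library. The C-type Pcdhac2 was the highest with 60.4 normalized counts per kb, and it held between 33.9% and 41.6% of all alpha counts. Its normalized counts of 240 and 173 in ctrl compared to 169 and 149 in Zfp276cko cultures did not overlap, with a log2 fold change of -0.38 and an edgeR adjusted p of 0.528. Pcdha9 had 68.9 and 57.4 compared to 42.5 and 49.8, and Pcdha12 had 78.4 and 36.0 compared to 56.1 and 48.1. Pcdha5 had 8.31 in ctrl replicate 1 and 25.8 to 27.1 in the other 3 libraries. Its log2 fold change of 0.57 therefore went to -0.029 without ctrl replicate 1 and 1.64 without ctrl replicate 2.

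Beta protocadherins, which are single-exon genes without the constant exons, were detected almost completely, with 21 of 22 at 10 counts or more in every library. The highest per kb were Pcdhb5 (139), Pcdhb10 (138) and Pcdhb9 (130). Pcdhb5 had 528 and 513 normalized counts in ctrl and 449 and 474 in Zfp276cko cultures, Pcdhb10 had 355 and 412 compared to 390 and 417, and Pcdhb9 had 512 and 401 compared to 328 and 349. Only Pcdhb5 and Pcdhb9 were separated. Pcdhb12 (90.2 and 64.1 compared to 108 and 104) and Pcdhb18 (226 and 338 compared to 363 and 367) were above ctrl in both Zfp276cko cultures, with log2 fold changes of 0.46 and 0.37 and edgeR adjusted p-values of 0.50 and 0.526. The sum over all beta genes was 97.4% of ctrl.

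The order of genes within the cluster was similar in both genotypes. Across the 21 detected beta genes, Spearman's rho between the genotype means of normalized counts per kb was 0.955. For the 22 gamma genes it was 0.954, and for 6 alpha genes 0.943. Between replicates it was 0.842 in ctrl and 0.948 in Zfp276cko cultures for beta genes, 0.768 and 0.965 for gamma genes, and 0.771 and 0.886 for alpha genes. These coefficients describe genes of the same libraries, which are not independent replicates. Sequence shared between genes limits the alpha and gamma values. Of all 101-base windows of the transcripts, 41.6 to 88.4% of each alpha and 30.8 to 62.7% of each gamma gene also occur in another gene, but at most 7.71% in beta genes. Pcdha4, with 88.4%, is the extreme case and had 0 counts.

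The spread between replicates was wider in ctrl than in Zfp276cko cultures for the members as for other genes. Of 74 tested members with 20 or more normalized counts on average, 7 showed a difference of 2-fold or more within the ctrl pair (Cdh4, Cdh5, Cdh8, Pcdh18, Pcdh20, Pcdha5 and Pcdha12). None did so within the Zfp276cko pair. For all tested genes the shares were 12.6% and 0.307%. Cdh4, Cdh8, Pcdh18 and Pcdha5 were higher in ctrl replicate 2, and Cdh5, Pcdh20 and Pcdha12 in ctrl replicate 1. Over all 10 neuronal markers, the sum was 15971 and 25073 in ctrl and 15674 and 17119 in Zfp276cko cultures. Map2 alone gave most of it, with 14612 and 18853 compared to 11607 and 13104. Syt1 had 33.2 and 874 compared to 342 and 351, and Gad1 had 78.4 and 2002 compared to 920 and 1003. Rbfox3, Snap25 and Stmn2 were likewise far lower in ctrl replicate 1 than in the other libraries. Nefl and Nefm differed less, and Slc17a7 was higher in ctrl replicate 1 than in ctrl replicate 2, with 5.94 and 2.25. The part of neuronal cells, and that of the fibroblast and mural markers of ctrl replicate 1, in these differences was not tested.

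**Figure D5:**
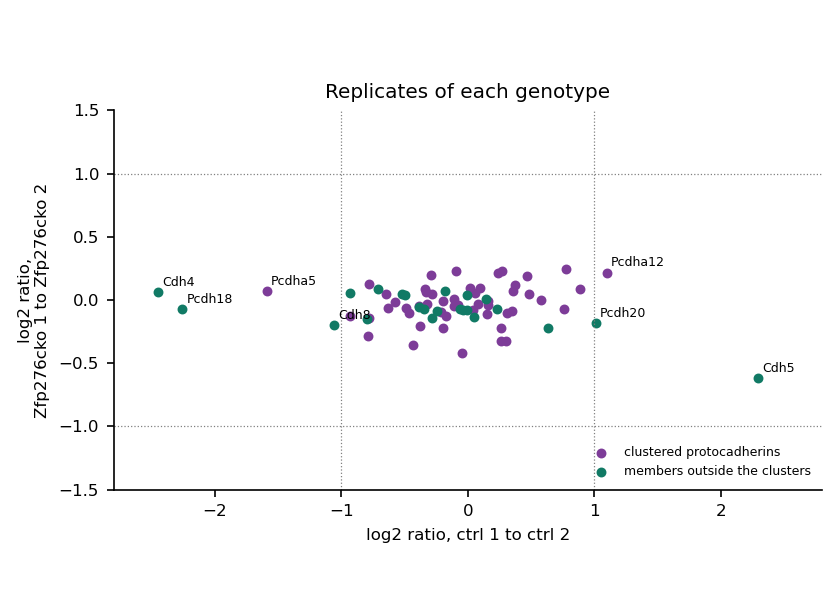
Log2 ratio of the Zfp276cko replicates against that of the ctrl replicates for 74 tested members with 20 or more normalized counts on average, calculated with a pseudocount of 1. All points lie within the dotted lines of a 2-fold difference on the vertical axis, while 7 lie outside of them on the horizontal axis, up to 5.46-fold for Cdh4.

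Genes that work together with cadherins were considered as lists, of which 75 genes were tested and none was called by edgeR. Of these, 23 lay below and 16 above both ctrl cultures, against 23.7% and 26.8% of all tested genes. At an edgeR p of at most 0.05, 8 were lower and 3 higher, against 7.3% and 8.33% of all tested genes. DESeq2 called 3 lower and 1 higher, against 2.21% and 2.92%. Beta-catenin (Ctnnb1), the main partner of classical cadherins, had 22202 and 20837 normalized counts in ctrl and 21769 and 20308 in Zfp276cko cultures, so that the genotypes overlapped. Among the catenins with 20 or more normalized counts on average, the alpha-catenin-like Ctnnal1 had the largest log2 fold change, with 5117 and 4883 compared to 2536 and 2431. This amounts to a log2 fold change of -1.01 with an adjusted p of 0.0962 by edgeR and 7.33e-10 by DESeq2. Of all 11 tested catenins, the alpha-catenin Ctnna3 had a larger one of 1.39 on 4.75 and 7.88 compared to 20.8 and 12.9, with an edgeR adjusted p of 0.323. The neural catenin Ctnnd2 had 2265 and 2258 compared to 1869 and 1716, with an edgeR adjusted p of 0.230.

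The WAVE complex and further partners of protocadherin tails comprised 12 tested genes. Cyfip2, a WAVE subunit, had 25356 and 33084 normalized counts in ctrl and 17366 and 16722 in Zfp276cko cultures, and DESeq2 called it lower with a log2 fold change of -0.78 in edgeR. The small subunit Brk1 had 3102 and 3056 compared to 2601 and 2556, and the focal adhesion kinase Ptk2 had 4281 and 3985 compared to 3391 and 3231. The related kinase Ptk2b, which clustered protocadherins are known to inhibit, went the other way with 1072 and 1284 compared to 2364 and 2392. Its log2 fold change was 1.01 with an adjusted p of 0.117 by edgeR and 4.74e-06 by DESeq2.

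Of the junction linkers, the actin-binding Lima1 had 6218 and 7713 compared to 4291 and 4319 and was called lower by DESeq2, while the tumor suppressor Nf2 had 5808 and 5480 compared to 4256 and 4306. Fat3, a giant cadherin, had 832 and 664 compared to 508 and 497, whereas Dchs2, which showed the largest log2 fold change of its list with 0.94, had 5.94 in ctrl replicate 1 and 118 to 124 in the other libraries. Among sheddases and gamma-secretase subunits, Psen2 had 849 and 600 compared to 1279 and 1198, and Aph1c had 147 and 66.4 compared to 217 and 238. Nectin4, another adhesion molecule, had 57.0 and 36.0 compared to 104 and 90.2. For Fat3, Nf2, Psen2 and Nectin4 the edgeR adjusted p-values were 0.236, 0.195, 0.214 and 0.272. None of 14 regulators of the clustered promoters had an edgeR p of at most 0.05 in either direction, and the one with the largest log2 fold change was the DNA methyltransferase Dnmt3a at -0.39 with an adjusted p of 0.403.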

How the data were processed

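RNA-Seq libraries of 2 ctrl and 2 Zfp276cko cultures were made with a stranded mRNA kit and sequenced as single 101 base reads. Reads were aligned by the authors with STAR 2.5.4a on mm10, and they deposited raw counts per gene symbol. Their methods name HTSeq on Ensembl genes and the submitters' processing notes name featureCounts 1.5.1, and the strand setting of the counting is not given in the sources used here. Counts were filtered with filterByExpr, which left 15766 genes, normalized with TMM and compared with the quasi-likelihood test of edgeR 4.0.16 (R 4.3.3, limma 3.58.1) and Benjamini-Hochberg adjustment over all tested genes. DESeq2 1.42.0 was an alternative, as were its size factors, other filters, a replicate block, an unadjusted p and leaving out each library. Normalized counts are counts multiplied by the mean effective library size (after TMM) and divided by that of the library. Positions and exon lengths came from the GENCODE annotation of mm10, in which 96 of 98 entries matched 1 gene, and promoters from RefSeq. The scripts were tested on simulated counts with the same dispersion in both genotypes. That test cannot show how the calls behave with the unequal spread of the ctrl and Zfp276cko cultures. Named were the 3 highest members of each subfamily, those with an edgeR p of at most 0.05 or a DESeq2 call, and, among those with a mean normalized count from 20 upwards, the 5 largest log2 fold changes in each direction and the 5 largest differences between ctrl replicates. Partner lists are represented by the largest log2 fold change above the same mean and by those with a p of at most 0.05. Other genes named were chosen after their values were seen. The members and lists were chosen with earlier results of these data known.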

Additional observations from a re-analysis of the deposited data

How the results depend on the processing

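DESeq2 called 338 genes lower and 447 higher, among them 7 members lower, and 4 partner genes. With an unadjusted p the numbers were 476 and 806, with 8 members and 6 partner genes. When genes of low counts were kept, 8 genes but no member were called higher. Leaving out single libraries gave 0 to 1286 genes lower, 0 to 1792 higher, 0 to 13 members lower, 0 to 6 members higher and 0 to 13 partner genes, and only the fits without a ctrl library made calls among members. In these fits the lone ctrl library is assumed to vary like the Zfp276cko cultures, which are much closer to each other.

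The median log2 fold change of all members ranged from -0.26 to -0.10 when single libraries were left out. It ranged from -0.28 to -0.062 for alpha, from -0.12 to 0.097 for beta and from -0.21 to -0.13 for gamma protocadherins. The range was -0.56 to -0.40 for delta-1, -0.80 to -0.47 for delta-2 and -0.31 to 0.086 for other protocadherins. For type I cadherins it was -0.84 to 0.55, for type II cadherins -0.39 to -0.23 and for other cadherins -1.55 to -0.16. The alpha median was -0.20 with at least 10 counts in every library, where fewer genes are tested, and DESeq2 gave -0.41 for other protocadherins, since it also fits Pcdh12, whose 0 to 1 counts per library had kept it out of the edgeR fit. The log2 fold change of 10 named members changed sign without 1 ctrl library, namely Cdh4 (-1.30 to 1.14), Cdh5 (-1.59 to 0.78), Pcdh18 (-1.62 to 0.68), Pcdh20 (-0.14 to 0.89), Pcdha12 (-0.60 to 0.53), Pcdha5 (-0.029 to 1.64), Cdh2 (-0.48 to 0.0096), Pcdh8 (-0.40 to 0.31), Pcdhb10 (-0.029 to 0.17) and Pcdhga3 (-0.087 to 0.68). Their cause was not tested. Of 34 named members, 7 were called under DESeq2, and none under size factors of DESeq2, no filter, or without a Zfp276cko library. Calls among them without 1 ctrl library are not counted here, since members such as Cdh4 also changed sign in these fits.

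With the replicate number as a block, edgeR called 0 genes in either direction, and the median log2 fold change of the members was -0.22. No call among members was added or lost by the block. Deviations of libraries with the same number correlated at -0.005. This value is necessarily the same for both replicate numbers, and the Zfp276cko cultures hardly differed from each other. It therefore cannot decide whether the preparations were paired.

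Depth was sufficient for members of high level, whereas 12 entries below 10 counts in every library allow no comparison. The precision is limited by 2 cultures per genotype.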
